A study of Mus musculus with 12 samples.

Results

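Leukemic long-term hematopoietic stem cells (LTHSC) of mice carrying 1 of 2 Cre lines were compared, as 1 set of 8 RNA-seq libraries, with those of mice without Cre. The 4 Tek_Cre and 4 Prx1_Cre libraries were set against the 4 No_Cre libraries by the average of the 2 group means on the log2 scale, and the genes followed are those that moved the same way in both Cre groups. All 12 libraries of the series entered. Of 14756 genes tested, 3083 moved the same way, 1405 of them higher and 1678 lower than in No_Cre. Per the labels, every mouse was C57BL/6 with chronic myeloid leukemia (CML) and the cells were sorted from bone marrow by conventional surface markers. They describe the mice as recipients in 1 field and as primary in another, and give no age, no leukemia model and no genotype at Cxcl12. Tek-Cre drives recombination in the endothelium and in blood-forming cells, and Prx1-Cre in stroma of mesenchymal origin. By its title the series concerns Cxcl12 of the mesenchymal niche and the resting state of leukemia stem cells that resist treatment. The comparison therefore asks which differences from No_Cre cells appear with either Cre line.

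LTHSC sit at the top of blood cell formation and divide rarely. In the bone marrow they are held near stromal and endothelial cells that make CXCL12, the chemokine read by the receptor CXCR4, and loss of that signal in the niche is known to change where stem cells lodge and how often they divide. In CML the stem cells carry the BCR-ABL1 fusion kinase, and quiescent ones can outlive treatment with kinase inhibitors.

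Total counts ran from 15715603 to 28860324 per library. Levels are CPM, counts scaled to library size with TMM (trimmed mean) factors, as mean ± SD (n = 4) where no library is named. They are not per length, so they are not compared between genes. The libraries of a group mostly lay close together, with a common biological coefficient of variation of 3.46% (No_Cre), 5.23% (Tek_Cre) and 6.85% (Prx1_Cre). Prx1_Cre replicate 4 stood apart over the genes tested. Its counts gave a chi-square per degree of freedom of 11.24 to 14.24 against the others of its group, which gave 1.788 to 2.212 among themselves. The highest value within Tek_Cre was 7.755 and within No_Cre 3.51. The series' design text calls the libraries biological replicates, but the labels name no animal for a library. The p-values therefore measure the spread between these libraries, which may be technical. All 43 listed LTHSC genes had at least some counts in every group. The same held for all measured genes of the erythroid, early and late neutrophil, eosinophil and mast cell lists. Detection therefore does not tell these cell types apart, and RNA of several mature lineages was present. Immunoglobulin genes took 7.31 to 7.71% of No_Cre counts, 25.2 to 26.0% of Tek_Cre counts and 0.296 to 0.310% of Prx1_Cre counts, opposite shifts in the 2 Cre groups. Xist lay at 1.5 to 1.59 CPM (No_Cre), 1.32 to 1.77 (Tek_Cre) and 13.3 to 16.5 (Prx1_Cre), and the Y-linked Ddx3y at 19.9 to 22.7, 22.8 to 26.1 and 6.09 to 7.58 CPM. What these differences contribute to the Prx1_Cre side of a comparison was not tested. In bulk samples, fewer cells of a type and less RNA per cell cannot be told apart.

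The average of the Cre groups differed from No_Cre in most genes, but only a part of those genes moved in both groups. On the average, 4507 genes were higher (30.5% of those tested) and 4952 lower (33.6%), at an adjusted p under 0.05 in edgeR's quasi-likelihood test. Of the 4507, 1405 (31.2%) were called higher in each group against No_Cre, 1822 in Prx1_Cre alone and 536 in Tek_Cre alone. A further 624 were higher in Prx1_Cre and lower in Tek_Cre, and 112 the reverse, so that the average of these has the sign of the larger change. Of the 4952, 1678 (33.9%) were lower in each group, 1939 in Prx1_Cre alone and 456 in Tek_Cre alone, while 713 and 147 went in opposite directions. With 1 term for Cre or no Cre, where the difference between the Cre groups counts as spread, the calls dropped to 1298 higher and 1275 lower, and 2497 of these 2573 were among the genes called the same way. Of the same-way genes described in the following, Prg2, Ear1, Ear6, H2-Eb1, Tet2, Tet3, Erg, Hlf, Jun and Junb missed the threshold in that fit, with adjusted p from 0.0503 for Prg2 to 0.271 for Ear1.

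The same-way genes made up 9.52% of tested genes on the higher side and 11.4% on the lower side, 20.9% together. Most changes were modest. Genes with at least a 2-fold change in each group numbered 224 higher (1.52%) and 283 lower (1.92%). With the stricter filter of at least 5 CPM in at least 4 libraries these counts were 39 and 59, and tested against a 1.5-fold change 215 genes were higher and 294 lower in both. Over the 1405 higher genes the median log2 fold change was 0.64 in Prx1_Cre and 0.39 in Tek_Cre, and over the 1678 lower genes -0.75 and -0.47. Among the higher genes, the change was larger in Prx1_Cre for 690 and in Tek_Cre for 202 by the test of the difference between the Cre groups, which called no difference for 513. Among the lower genes these counts were 807, 253 and 618. Both comparisons use the same 4 No_Cre libraries, so a chance shift in those would move a gene the same way in both, and the 3083 is read here as a description. At the threshold, Exoc1 came in with a larger adjusted p of 0.0498 and Anks1 stayed out with one just above 0.05.

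**Figure D1:**
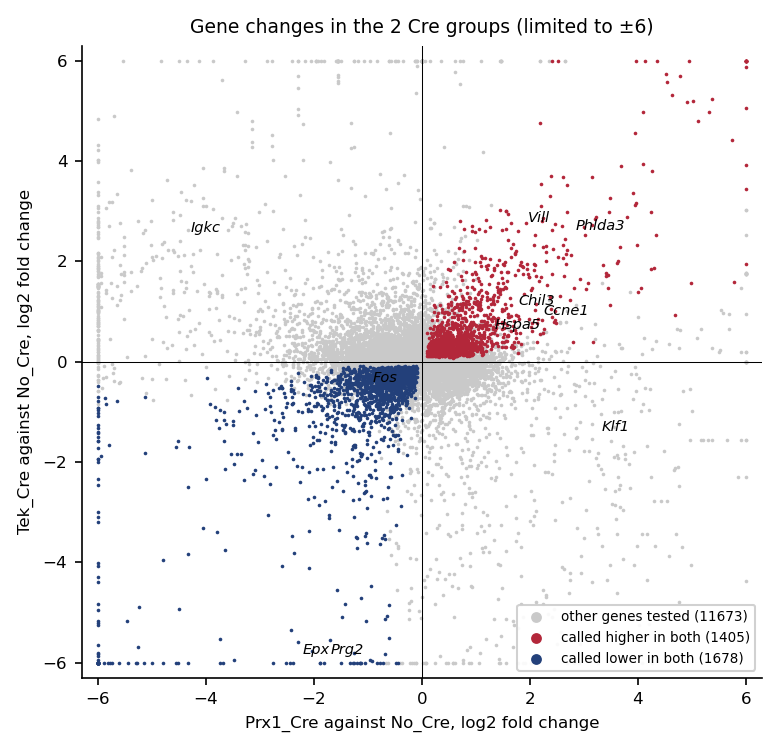
Log2 fold change of each tested gene in Prx1_Cre (horizontal axis) and in Tek_Cre (vertical axis), each against No_Cre, with values beyond the limits drawn at the edge. Colored points are the 1405 genes called higher and the 1678 called lower in both, and both axes share the No_Cre libraries.

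Chaperones of the endoplasmic reticulum (ER) were higher in both Cre groups. Of 21 tested genes of ER stress and secretion, 17 were higher and 1 lower on the average, beside 30.5% and 33.6% of all tested genes. In both groups 8 were higher and 0 lower, beside 9.52% and 11.4%. The list's median average change was 0.42 on the log2 scale, beside -0.01 over all tested genes. Folding helpers accounted for 7 of the 8, out of 14 tested: Hspa5, Hsp90b1, Pdia4, Manf, Dnajc3, Sdf2l1 and Dnajb11. Of the 7 genes for degradation and stress sensing, Herpud1 alone was called the same way. In Tek_Cre 5 of the 7 were higher and 1 lower, and in Prx1_Cre 1 was higher and 4 lower.

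Hspa5 (chr2:34771970-34777547) encodes BiP, the main ER chaperone and a brake on the stress sensors. It measured 757, 743, 784 and 749 CPM in the No_Cre libraries, 1126, 1067, 1060.2 and 989 in Tek_Cre and 1741, 1736, 1721 and 1569 in Prx1_Cre. All 8 Cre libraries lay above all 4 No_Cre libraries, and Prx1_Cre lay above Tek_Cre. The change was 0.48 ± 0.04 (log2 ± SE, adjusted p 1.45e-09) in Tek_Cre and 1.16 ± 0.04 (3.19e-17) in Prx1_Cre. Hsp90b1 (chr10:86690209-86705509), the ER member of the HSP90 family, stood at 237, 224, 241 and 219.8 CPM in the No_Cre libraries, 557, 544, 516 and 481 in the Tek_Cre libraries and 483, 474, 462 and 382 in the Prx1_Cre libraries. It was the reverse case: no overlap with No_Cre, and a rise of 2.28-fold in Tek_Cre against 1.96-fold in Prx1_Cre, a difference that passed the test (adjusted p 0.00179). Pdia4, a disulfide isomerase, rose 1.71-fold and 1.53-fold in Tek_Cre and Prx1_Cre, and Dnajc3, a co-chaperone that also restrains the kinase PERK, 1.53-fold and 1.38-fold. Manf, a secreted ER protein, averaged 75.2 ± 4.51 CPM without Cre, 104 ± 3.96 in Tek_Cre and 104 ± 6.68 in Prx1_Cre, with a difference between the Cre groups of 0.01 ± 0.05 on the log2 scale. The transcription factor Xbp1 did not share the pattern: it rose 2.51-fold in Tek_Cre and fell 1.81-fold in Prx1_Cre.

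The promoters of Hspa5, Hsp90b1 and Dnajc3 are shown because each holds a match to a known stress element. The ER stress response element was searched as CCAAT, any 9 bases and CCACG and, for the other strand, CGTGG, any 9 bases and ATTGG, in the 250 bases before the RefSeq start site (GRCm38.p6). A gene was counted when any of its promoters held a match: 3 of the 7 genes with a promoter available among the 8 higher in both, 5 of the 11 available among the other tested members of the list, and 35 of all 27025 genes with a promoter (0.130%). A match is a description of letters, not of binding. Each sequence below runs 5′ to 3′ in the gene's direction up to the base before the start site, with the fixed letters of the element in capitals: Hspa5 at chr2:34771840-34772089 on the plus strand, Hsp90b1 at chr10:86705445-86705694 on the minus strand with 1 match on each strand, and Dnajc3 at chr14:118937682-118937931 on the plus strand.
Hspa5: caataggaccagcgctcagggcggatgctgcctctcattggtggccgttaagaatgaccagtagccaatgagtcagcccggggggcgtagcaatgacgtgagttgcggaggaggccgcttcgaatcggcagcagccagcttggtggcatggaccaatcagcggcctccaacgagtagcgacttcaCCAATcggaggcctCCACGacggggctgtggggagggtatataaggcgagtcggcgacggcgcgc
Hsp90b1: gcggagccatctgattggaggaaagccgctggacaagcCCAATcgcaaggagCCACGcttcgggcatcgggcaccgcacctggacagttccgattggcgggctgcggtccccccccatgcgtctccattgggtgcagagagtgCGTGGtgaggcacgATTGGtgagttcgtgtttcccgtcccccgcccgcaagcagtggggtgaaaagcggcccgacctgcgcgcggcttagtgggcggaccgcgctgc
Dnajc3: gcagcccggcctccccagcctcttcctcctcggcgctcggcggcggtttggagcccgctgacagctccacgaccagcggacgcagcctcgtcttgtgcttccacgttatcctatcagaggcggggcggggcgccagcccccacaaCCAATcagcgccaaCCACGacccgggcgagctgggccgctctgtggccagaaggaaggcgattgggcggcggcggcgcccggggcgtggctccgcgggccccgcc
The match began 65 bases before the start site in Hspa5, 212 and 107 bases before it in Hsp90b1, and 105 bases before it in Dnajc3. It was not found in the windows of the others among the 7 genes higher in both that had a promoter available.

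Plasma cell genes, which use the same secretory machinery, moved apart in the 2 groups. Of 14 such genes, 13 were higher in Tek_Cre and 14 lower in Prx1_Cre, with 0 called the same way, and their summed level ran from 1324 to 1345 CPM (No_Cre), 3433 to 3480 (Tek_Cre) and 606 to 632 (Prx1_Cre). The joining chain gene Jchain lay at 216 ± 6.63, 874 ± 37.4 and 6.82 ± 1.28 CPM. Their part in the ER chaperone levels of Tek_Cre was not tested.

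The amino acid response driven by ATF4 was in part shared. Of 45 tested genes, 34 were higher and 5 lower on the average, beside 30.5% and 33.6% of all tested genes. Called in both groups were 12 higher and 0 lower, beside 9.52% and 11.4%. The average mainly followed Prx1_Cre, where 37 were higher and 3 lower (median log2 change 0.63). In Tek_Cre 16 were higher and 19 lower (median -0.05). The 12 comprised 4 synthesis enzymes of 11, 3 tRNA synthetases of 11, 2 transporters of 9, 2 regulators of 9 and 1 stress output gene of 5. Chac1 (chr2:119351229-119354381), an ATF4 target that degrades glutathione, measured 2.01, 2.23, 2.03 and 1.71 CPM in the No_Cre libraries, 6.35, 4.07, 5.09 and 5.74 in the Tek_Cre libraries and 8.3, 7.84, 8.3 and 8.34 in the Prx1_Cre libraries. The groups did not overlap, and the rise was 2.7-fold in Tek_Cre (adjusted p 1.22e-08) and 4.08-fold in Prx1_Cre (1.28e-12). Pycr1, which makes proline, rose 2.66-fold and 1.47-fold. The cationic amino acid transporter Slc7a3 rose 2.2-fold in Tek_Cre and 11.2-fold in Prx1_Cre, from 1.28 ± 0.43 CPM in No_Cre. Sesn2, a leucine sensor that restrains mTORC1, and the transcription factor Cebpb rose by less than 2-fold in each group. Atf4 itself and the asparagine synthetase Asns were not shared: Asns fell 1.28-fold in Tek_Cre and rose 8.09-fold in Prx1_Cre.

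The promoter of Chac1 (RefSeq, GRCm38.p6, chr2:119350992-119351241, plus strand) is shown for its match to the core of the C/EBP-ATF response element, with the fixed letters in capitals.
Chac1: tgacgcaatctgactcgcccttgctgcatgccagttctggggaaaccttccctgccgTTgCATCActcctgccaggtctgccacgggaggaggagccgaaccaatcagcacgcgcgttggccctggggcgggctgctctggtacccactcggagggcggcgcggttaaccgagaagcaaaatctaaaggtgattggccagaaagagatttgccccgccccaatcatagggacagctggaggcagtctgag
The core was searched as TGATGNAA and, for the other strand, TTNCATCA, and the match lay on the other strand 193 bases before the start site. Counted by gene, it was found in 3 of the 8 with a promoter available among the 12 (Chac1, Got1 and Pycr1), in 7 of 28 among the other tested members and in 1056 of all 27025 genes (3.91%).

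Granule and surface genes of late neutrophils were higher in both Cre groups. Of 16 tested, 12 were higher and 0 lower on the average (median average change 0.67), beside 30.5% and 33.6% of all tested genes. In both groups 10 were higher and 0 lower, beside 9.52% and 11.4%. Their summed level ran from 25514 to 26126 CPM (No_Cre), 40465 to 41149 (Tek_Cre) and 41647 to 42172 (Prx1_Cre). Ltf (chr9:111019271-111042767) encodes lactoferrin of the secondary granules, and measured 4681, 4832, 4664 and 4748 CPM in the No_Cre libraries, 7216, 7341, 7633 and 7747 in the Tek_Cre libraries and 9938, 9975, 9985 and 11157 in the Prx1_Cre libraries. The 3 groups did not overlap, and the rise was 1.58-fold in Tek_Cre (adjusted p 1.79e-12) and 2.17-fold in Prx1_Cre (2.45e-17). Chil3, a chitinase-like protein, stood at 610.4, 644, 637 and 549.6 CPM in the No_Cre libraries, 1225, 1248, 1201 and 1052 in the Tek_Cre libraries and 2007, 1924, 1917 and 1501 in the Prx1_Cre libraries, again with every Cre library above every No_Cre library. The gelatinase Mmp9 rose 2.11-fold in Tek_Cre and 1.41-fold in Prx1_Cre, the collagenase Mmp8 2.17-fold and 1.67-fold, and the surface antigen gene Ly6g 2.08-fold and 1.68-fold. Lcn2, which binds bacterial siderophores, rose 1.54-fold and 1.78-fold, and the alarmin subunit S100a9 1.72-fold and 1.38-fold. Its partner S100a8 rose in Tek_Cre (1.8-fold) and had a change of -0.00 ± 0.09 in Prx1_Cre, while Camp rose in Tek_Cre and fell in Prx1_Cre.

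Genes of earlier neutrophil stages moved apart in the 2 groups. Of 11 tested early neutrophil genes, 1 was higher and 1 lower in both groups. Both counts are near the shares of all tested genes (9.52% higher and 11.4% lower) and no result about the list. In Prx1_Cre 10 of the 11 were higher and 1 lower, and in Tek_Cre 1 was higher and 8 lower. Their summed level was 8585 to 8819 CPM (No_Cre), 3395 to 3650 (Tek_Cre) and 17686 to 19978 (Prx1_Cre). Mpo, the main azurophil granule enzyme, stood at 4416 ± 84.7, 1120.5 ± 60.1 and 11429 ± 818 CPM. Of 18 tested genes of monocytes and dendritic cells, 5 were higher and 11 lower on the average, beside 30.5% and 33.6% of all tested genes. Called in both groups were 1 higher and 4 lower, beside 9.52% and 11.4%. In Prx1_Cre 10 of the 18 were higher and 7 lower, and in Tek_Cre 3 were higher and 11 lower. The list's summed level was above No_Cre in both groups: 2187 to 2287 CPM (No_Cre), 2758 to 2861 (Tek_Cre) and 4076 to 4282 (Prx1_Cre). Single receptor genes chosen after their values were seen were higher in both: the complement receptor gene C5ar1 rose 2.14-fold in Tek_Cre and 1.76-fold in Prx1_Cre, the inhibitory receptor gene Pirb 2.46-fold and 2.16-fold, and the interleukin 1 decoy receptor gene Il1r2 1.73-fold and 2.32-fold.

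Immediate early genes, which growth factor and stress signals switch on within minutes, were lower in both Cre groups. Of 33 tested, 0 were higher and 29 lower on the average (median -0.58), beside 30.5% and 33.6% of all tested genes. Called in both were 0 higher and 19 lower, beside 9.52% and 11.4%. The 19 comprised 4 of 10 AP-1 genes, 3 of 5 EGR and NR4A genes, 5 of 8 KLF and IER genes and 7 of 10 feedback genes. Fos (chr12:85473890-85477273) encodes a subunit of AP-1 and measured 6109.8, 5862, 5951 and 6207 CPM in the No_Cre libraries, 4014, 3926, 4062 and 4286 in the Tek_Cre libraries and 2745, 2715, 2769 and 3033 in the Prx1_Cre libraries. Each Cre library lay below each No_Cre library, and the fall was 1.48-fold in Tek_Cre (adjusted p 3.43e-11) and 2.14-fold in Prx1_Cre (3.43e-17). Fosb, another AP-1 subunit, measured 72.1, 64, 70.5 and 74.5 CPM in the No_Cre libraries, 40.6, 38.2, 36.1 and 36.3 in the Tek_Cre libraries and 34.4, 35.2, 37 and 36.1 in the Prx1_Cre libraries. It fell 1.86-fold and 1.97-fold, and the difference between the Cre groups was -0.08 ± 0.06 on the log2 scale (adjusted p 0.189). Klf2 (chr8:72319033-72321656), a factor tied to quiescence in lymphocytes, stood at 747, 709.6, 736 and 807 CPM in the No_Cre libraries, 462, 450.2, 453 and 483 in the Tek_Cre libraries and 396, 404, 415 and 438 in the Prx1_Cre libraries, without overlap between No_Cre and either Cre group. Klf6 fell 1.56-fold and 1.64-fold. The phosphatase gene Dusp1, which switches off MAP kinases, fell 1.38-fold and 1.57-fold, and Zfp36, which promotes decay of cytokine messages, 1.34-fold and 2.15-fold. Jun and Junb fell 2-fold and 2-fold in Prx1_Cre but 1.18-fold and 1.13-fold in Tek_Cre, and the Junb libraries of Tek_Cre overlapped those of No_Cre. With 1 term for Cre or no Cre, Jun and Junb had adjusted p of 0.0594 and 0.103. The mitochondrially encoded share of counts, a common measure of RNA quality, was 0.117 to 0.142% (No_Cre), 0.105 to 0.126% (Tek_Cre) and 0.282 to 0.456% (Prx1_Cre). Of 13 such genes, 5 had 0 counts in every library, mt-Co2 and mt-Co3 among them. The share is therefore incomplete and of limited use as a quality measure here. The part of RNA quality in these changes was not tested.

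**Figure D2:**
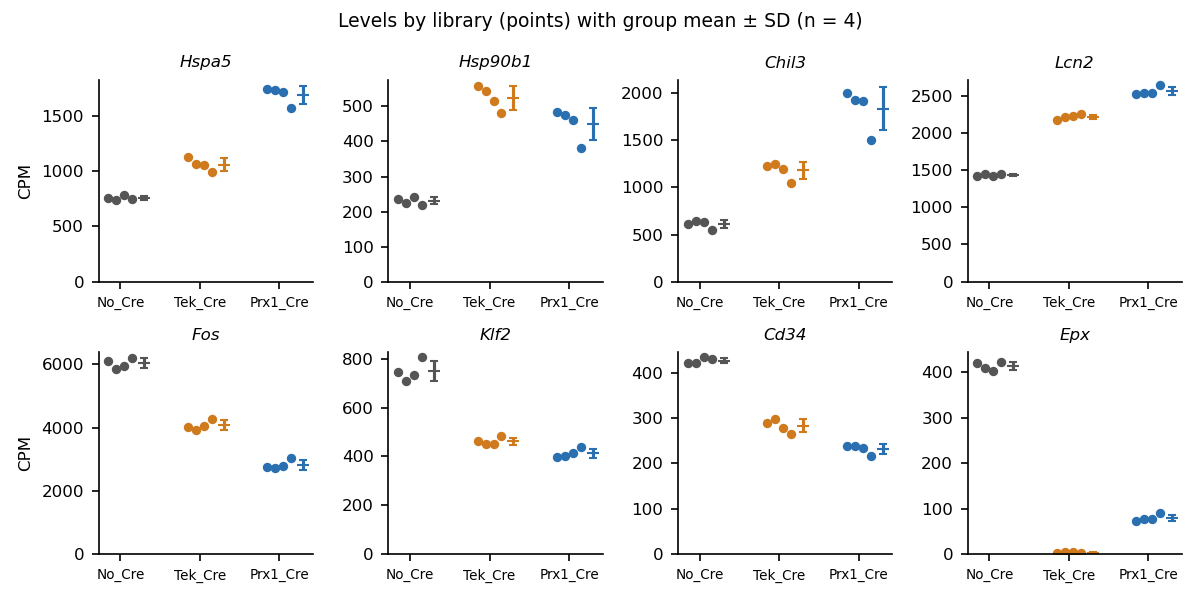
Level in CPM of selected genes in each library (points) of No_Cre, Tek_Cre and Prx1_Cre, with the group mean ± SD (n = 4). In Hspa5, Hsp90b1, Chil3 and Lcn2 every Cre library lies above every No_Cre library, and in Fos, Klf2, Cd34 and Epx below.

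Eosinophil genes fell in both groups. Of 9 tested, 8 were lower on the average (median -3.06) and 7 in both groups, with 0 higher. Over all tested genes, 33.6% were lower on the average and 11.4% in both. The summed level of the 10 markers was 1624 to 1687 CPM (No_Cre), 28.4 to 33.4 (Tek_Cre) and 438 to 485 (Prx1_Cre), and all 10 had counts in each group. Epx (chr11:87864000-87875536) encodes eosinophil peroxidase and measured 421, 409, 403 and 422 CPM in the No_Cre libraries, 1.97, 3.62, 3.27 and 2.97 in the Tek_Cre libraries and 72.7, 76.8, 76.6 and 89.2 in the Prx1_Cre libraries. The groups were fully apart, with a fall of 144-fold in Tek_Cre (adjusted p 3.80e-27) and 5.26-fold in Prx1_Cre (9.21e-21), and the difference between the Cre groups was 4.77 ± 0.10 on the log2 scale (6.85e-23). Prg2 (chr2:84980461-84983632), the granule major basic protein, stood at 1121, 1084, 1102 and 1136 CPM in the No_Cre libraries, 13.8, 15.2, 17.3 and 17.7 in the Tek_Cre libraries and 291, 289.7, 297 and 324 in the Prx1_Cre libraries, a fall of 69.3-fold and 3.7-fold. Its homolog Prg3 fell 23.3-fold and 2.96-fold, and the surface lectin gene Siglecf 2.9-fold and 1.69-fold. The ribonuclease genes Ear1, Ear2 and Ear6 fell as well, but they are close copies of each other and their counts depend on how shared reads were assigned, which is not given in the sources used here.

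Genes of the LTHSC state were lower on the average, mainly through Prx1_Cre. Of 43 tested, 36 were lower and 4 higher on the average (median -0.44), beside 33.6% and 30.5% of all tested genes. In both groups 13 were lower and 1 higher, beside 11.4% and 9.52%. The summed level was 7792 to 7873 CPM (No_Cre), 8395 to 8489 (Tek_Cre) and 4779 to 4814 (Prx1_Cre), so the sum was above No_Cre in Tek_Cre. Cd34 (chr1:194938819-194961279), a sialomucin used to grade stem and progenitor cells, fell in both: 422, 422, 434 and 431 CPM in the No_Cre libraries, 290.2, 298, 278 and 266 in the Tek_Cre libraries and 239, 238, 235 and 216 in the Prx1_Cre libraries. All 8 Cre libraries lay below No_Cre, by 1.51-fold in Tek_Cre (adjusted p 2.03e-11) and 1.84-fold in Prx1_Cre (3.04e-15). The cytokine receptor gene Flt3 fell 1.3-fold and 1.42-fold. Among transcription factors, Runx1 fell 1.23-fold and 1.6-fold, Erg 1.24-fold and 2.16-fold, and Hlf 1.14-fold and 2.02-fold. With 1 term for Cre or no Cre, Erg and Hlf had adjusted p of 0.0512 and 0.0923. The stem cell markers Procr, Ly6a, Slamf1, Kit and Mecom were not shared: each rose in Tek_Cre, by 1.14-fold for Kit up to 1.41-fold for Ly6a, and fell in Prx1_Cre, by 1.44-fold for Kit up to 2.87-fold for Ly6a.

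Of 29 tested quiescence genes, 21 were lower and 2 higher on the average (median -0.49), beside 33.6% and 30.5% of all tested genes. Called in both groups were 10 lower and 2 higher, beside 11.4% and 9.52%, with several of the 10 also in the immediate early list. The average mainly followed Prx1_Cre, where 24 were lower and 3 higher (median -0.71). In Tek_Cre 12 were lower and 9 higher (median -0.01). The inhibitor genes of cyclin-dependent kinases moved in different directions. Cdkn1b (chr6:134920401-134925513), which encodes p27, measured 4.91, 5.46, 5.04 and 5.3 CPM in the No_Cre libraries, 2.98, 2.44, 3.43 and 2.27 in the Tek_Cre libraries and 2.71, 2.68, 2.95 and 2.17 in the Prx1_Cre libraries. It fell without overlap, by 1.86-fold in Tek_Cre (adjusted p 1.13e-05) and 1.96-fold in Prx1_Cre (6.80e-07). Cdkn1a (chr17:29090976-29100727), the p53 target that encodes p21, measured 23.3, 19.5, 19.2 and 20.3 CPM in the No_Cre libraries, 24.8, 24.8, 25.1 and 25.3 in the Tek_Cre libraries and 36, 37.4, 37 and 39.6 in the Prx1_Cre libraries. It rose 1.22-fold in Tek_Cre (adjusted p 0.00106) and 1.82-fold in Prx1_Cre (1.35e-11), and the nearest Tek_Cre and No_Cre libraries were at 24.8 and 23.3 CPM. Ccne1 (chr7:38097984-38107534), the cyclin of entry into S phase, stood at 28.9, 32.3, 28.7 and 26.7 CPM in the No_Cre libraries, 48.8, 47.7, 51.3 and 50.4 in the Tek_Cre libraries and 115, 123, 119 and 126 in the Prx1_Cre libraries. It rose 1.7-fold and 4.14-fold, and the rise was larger in Prx1_Cre (difference 1.28 ± 0.05 on the log2 scale, adjusted p 1.34e-16). Over the 24 tested genes of G1 control, 12 were higher and 7 lower on the average, and 6 and 2 in both.

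Other lineage and signalling genes fell in both groups in smaller sets. Of 20 tested megakaryocyte genes, 15 were lower and 3 higher on the average, beside 33.6% and 30.5% of all tested genes. Called in both were 8 lower and 1 higher, beside 11.4% and 9.52%. Pf4 (chr5:90772435-90773383), platelet factor 4, measured 266, 261, 256 and 267 CPM in the No_Cre libraries, 125, 129, 129 and 133 in the Tek_Cre libraries and 90.8, 95.2, 93.4 and 96 in the Prx1_Cre libraries. The groups did not overlap, with falls of 2.03-fold (adjusted p 4.70e-17) and 2.8-fold (1.49e-20), and the platelet receptor genes Gp9 and Gp1bb fell 1.38-fold and 1.33-fold in Tek_Cre and 2.19-fold and 1.59-fold in Prx1_Cre. The list's summed level was 3765 to 3854 CPM (No_Cre), 3708 to 3964 (Tek_Cre) and 2412 to 2667 (Prx1_Cre).

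All 11 tested genes of MHC class II presentation were lower on the average (median -0.72), and 5 were lower in both groups, with 0 higher. Over all tested genes, 33.6% were lower on the average, and 11.4% were lower and 9.52% higher in both. H2-Eb1 (chr17:34305867-34316674) encodes a class II beta chain and stood at 63.9, 67.4, 63 and 67.1 CPM in the No_Cre libraries, 31.5, 29.9, 33.2 and 34.7 in the Tek_Cre libraries and 5.2, 4.7, 5.21 and 5.55 in the Prx1_Cre libraries. It fell 2.01-fold in Tek_Cre (adjusted p 3.97e-13) and 12.6-fold in Prx1_Cre (4.06e-23), and with 1 term for Cre or no Cre its adjusted p was 0.0559. Ciita, the transactivator of these genes, fell 2.25-fold and 14.1-fold, while the invariant chain gene Cd74 rose 1.53-fold in Tek_Cre and fell 12.1-fold in Prx1_Cre. H2 genes are related in sequence, so their counts may depend on how shared reads were assigned. Of 17 tested B cell genes, 4 were lower and 0 higher in both, and the list's summed level was 205 to 213 CPM (No_Cre), 371 to 383 (Tek_Cre) and 61.3 to 68.9 (Prx1_Cre). The part of B cell RNA in the class II levels was not tested.

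Of 27 tested genes of the Wnt pathway, 17 were lower and 2 higher on the average (median -0.31), and 9 were lower and 1 higher in both groups. Over all tested genes, 33.6% were lower and 30.5% higher on the average, and 11.4% and 9.52% in both. Of 15 tested genes of DNA methylation and its removal, 7 were lower and 5 higher on the average. The median average change was 0.04 on the log2 scale, so the list as a whole did not fall. Called in both groups were 5 lower and 0 higher. Those 5 were Dnmt3a, Dnmt3b, Tet2, Tet3 and Idh2. Dnmt3a (chr12:3806007-3914443), a de novo DNA methyltransferase often mutated in myeloid disease, measured 84, 80.2, 83.8 and 79.6 CPM in the No_Cre libraries, 63.2, 58.5, 59 and 71.4 in the Tek_Cre libraries and 50.7, 48.2, 50.1 and 51.4 in the Prx1_Cre libraries. It fell 1.29-fold in Tek_Cre (adjusted p 4.12e-06) and 1.63-fold in Prx1_Cre (2.92e-11) without overlap. Tet2, which oxidises methylcytosine, fell 1.33-fold and 1.19-fold, and Tet3 1.13-fold and 1.78-fold, with adjusted p of 0.0512 and 0.0786 with 1 term for Cre or no Cre. Of 34 tested TGF-beta genes, 9 were lower and 4 higher in both, beside 11.4% lower and 9.52% higher over all tested genes. The higher count is near that share and no result about the list. In Tek_Cre 14 of the 34 were higher and 11 lower, and in Prx1_Cre 6 higher and 25 lower. Of 32 NF-kB and TNF genes, 3 were lower and 3 higher in both. The NF-kB and TNF shares are near those of all tested genes (11.4% lower and 9.52% higher), so the count is no result about that list. Its 3 higher members were Il1b, Ccl3 and Tnf, which encode cytokines. Il1b rose 1.62-fold in Tek_Cre and 4.08-fold in Prx1_Cre, Ccl3 1.81-fold and 3.94-fold, and Tnf 1.6-fold and 2.59-fold.

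**Figure D3:**
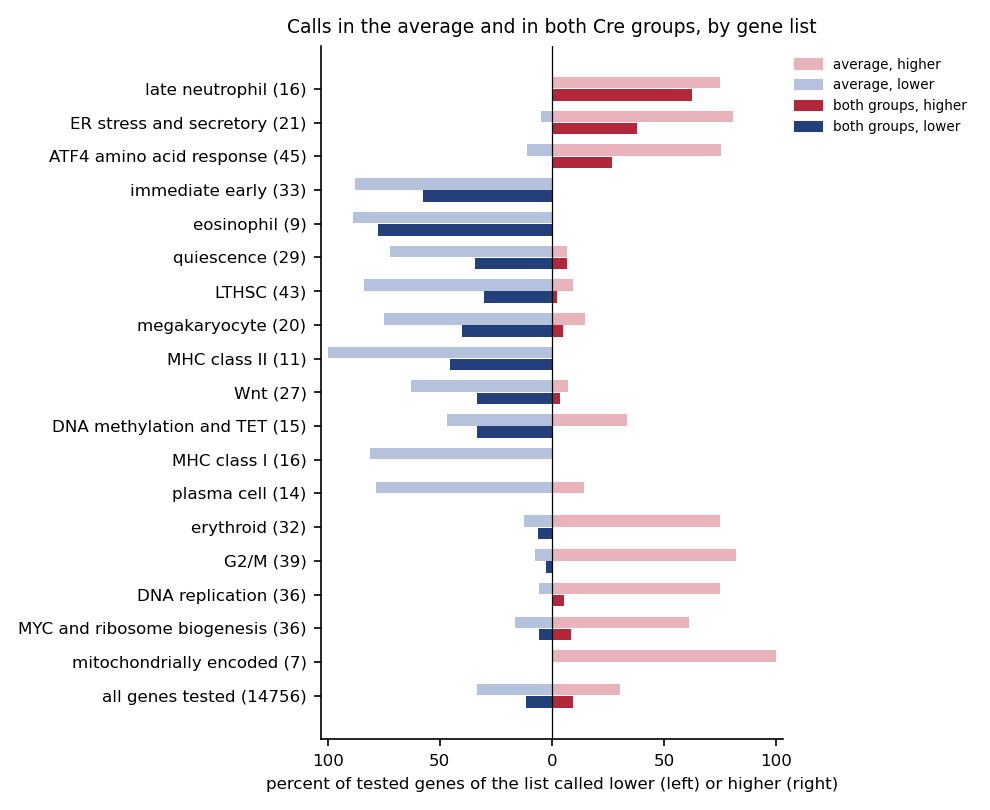
Percent of the tested genes of each list called lower (left) or higher (right), for the average of the Cre groups and for calls in both groups. Lists such as the late neutrophil, eosinophil and immediate early genes keep a large part of their calls in both groups, and the erythroid and G2/M lists do not.

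The genes with the largest changes in both groups had varied roles. They were ranked by the smaller of their 2 changes, among genes of at least 5 CPM on the higher side whose No_Cre and Cre libraries did not overlap, a condition that 1214 tested genes met with Cre higher (8.23%) and 1483 with Cre lower (10.1%). The 12 leading risen genes were Phlda3, Nt5e, L1cam, Vill, Plxdc1, Tspan15, Rnf128, Ceacam10, Tlr13, Chac1, Bmx and Asprv1. Since they were picked by their size, their values are given as a description.

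Phlda3 (chr1:135766119-135769136), a p53 target that restrains AKT, measured 1.51, 1.15, 0.707 and 1.25 CPM in the No_Cre libraries, 5.21, 6.43, 6.27 and 7.52 in the Tek_Cre libraries and 6.31, 8.7, 6.4 and 8.17 in the Prx1_Cre libraries, a rise of 5.46-fold and 6.3-fold. Nt5e (chr9:88327197-88372092) encodes CD73, which makes extracellular adenosine, and stood at 1.31, 0.999, 1.15 and 1.38 CPM in the No_Cre libraries, 7.1, 4.22, 5.63 and 6.32 in the Tek_Cre libraries and 5.29, 5.9, 6.47 and 5.21 in the Prx1_Cre libraries. Both genes were near 1 CPM in No_Cre and several times that in each Cre library. Vill (chr9:119052778-119071525), a villin-like actin-binding protein, measured 22.4, 23.8, 20.2 and 22.4 CPM in the No_Cre libraries, 135, 135, 138 and 136 in the Tek_Cre libraries and 68.4, 72.4, 73.9 and 90.2 in the Prx1_Cre libraries. It rose 6.11-fold in Tek_Cre and 3.42-fold in Prx1_Cre, a larger rise in Tek_Cre (adjusted p 1.36e-11). The adhesion molecule gene L1cam (chrX:73853778-73896105) was at 3.29, 5.11, 3.71 and 3.83 CPM in the No_Cre libraries, 14, 15.6, 15.3 and 12 in the Tek_Cre libraries and 15, 15.5, 17.1 and 20.4 in the Prx1_Cre libraries, well apart. Rnf128, a ubiquitin ligase of T cell anergy, rose 3.25-fold and 4.33-fold, Tspan15, a tetraspanin that binds the protease ADAM10, 4.45-fold and 3.3-fold, and Plxdc1 3.31-fold and 10.9-fold.

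The 12 leading fallen genes were Rpl39l, Epx, Apc2, Shroom3, Bdh2, Sptbn4, Prg2, Arhgef28, Erbb3, Bpifc, Prg3 and Sall2. Rpl39l, a ribosomal protein gene near-identical to Rpl39, is uncertain because shared reads could be split between them: it had 586 counts in the 4 No_Cre libraries together, 1 in Tek_Cre and 11 in Prx1_Cre. Apc2 (chr10:80295977-80318263), a homolog of the Wnt regulator Apc, measured 13.6, 10.7, 12.9 and 18.9 CPM in the No_Cre libraries, 0.438, 1.18, 1.45 and 1.03 in the Tek_Cre libraries and 2.68, 2.35, 2.44 and 3.29 in the Prx1_Cre libraries. Every Cre library was far below No_Cre, with a fall of 14-fold in Tek_Cre and 5.19-fold in Prx1_Cre. Shroom3 (chr5:92683435-92965318), which ties actin to apical constriction in epithelia, stood at 6.65, 6.69, 5.7 and 5.44 CPM in the No_Cre libraries, 0.964, 1.26, 0.965 and 1.45 in the Tek_Cre libraries and 1.08, 1.53, 1.37 and 1.17 in the Prx1_Cre libraries. Bdh2 (chr3:135281221-135304426), a short-chain dehydrogenase, was at 17.6, 16.6, 17.6 and 17.5 CPM in the No_Cre libraries, 4.69, 3.48, 4.4 and 3.55 in the Tek_Cre libraries and 3.73, 4.54, 3.27 and 3.42 in the Prx1_Cre libraries, so that the 2 Cre groups overlapped each other and neither came near No_Cre. The receptor tyrosine kinase gene Erbb3 fell 5.66-fold and 3.19-fold, the spectrin gene Sptbn4 6.47-fold and 4.01-fold, and the zinc finger gene Sall2 2.93-fold and 3.85-fold.

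**Figure D4:**
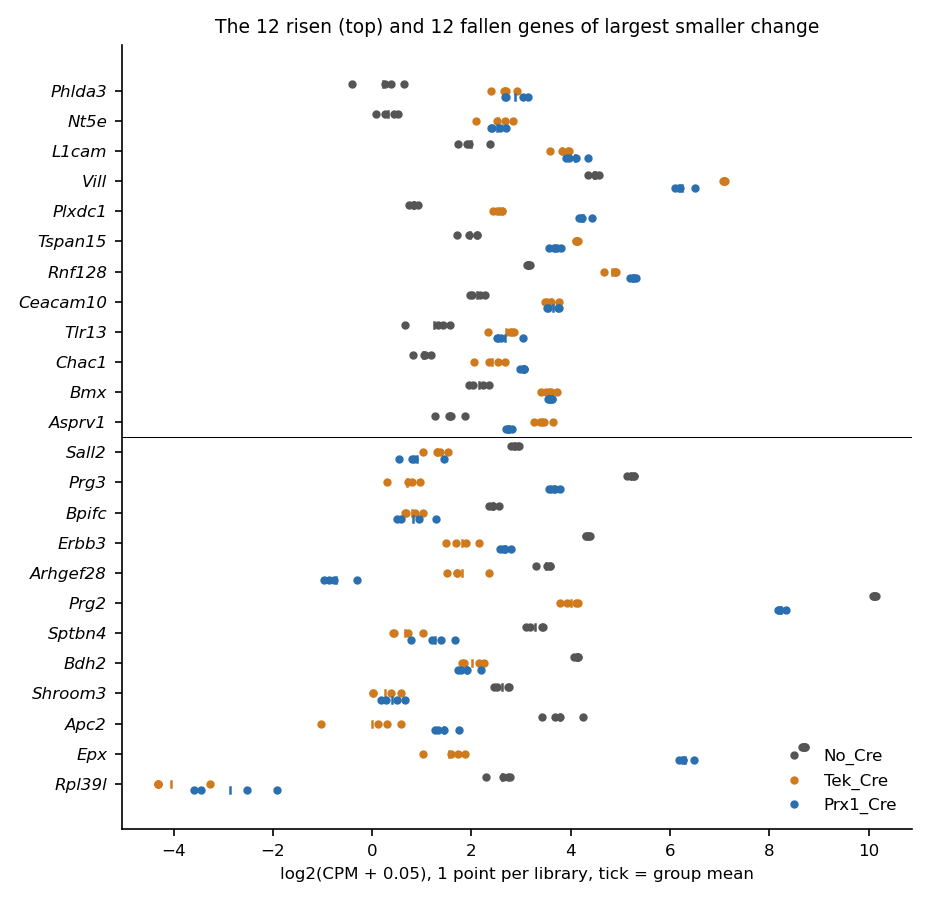
Log2(CPM + 0.05) in each library, with ticks for the group means, of the 12 risen genes (top) and the 12 fallen genes (bottom) with the largest smaller change of the 2 groups. In each gene no Cre library crosses into the range of the No_Cre libraries.

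A few genes changed by at least 2-fold and by nearly the same amount in both groups. Of the genes that met the naming conditions, 849 risen and 979 fallen, 20 and 36 had at least a 2-fold change in each group. The 5 risen ones whose difference between the Cre groups was nearest 0 were Nt5e, Ceacam10, Tlr13, Bmx and Rcvrn, and the 5 fallen ones Bdh2, Bpifc, Itga3, Klf4 and Jakmip1. Tlr13 (chrX:106143204-106160493), which senses bacterial ribosomal RNA, measured 2.63, 1.54, 2.92 and 2.44 CPM in the No_Cre libraries, 6.83, 7.03, 7.24 and 4.96 in the Tek_Cre libraries and 8.14, 5.69, 6.00 and 5.75 in the Prx1_Cre libraries, a rise of 2.72-fold and 2.71-fold. Bmx (chrX:164192842-164258193), a TEC family tyrosine kinase of myeloid and endothelial cells, stood at 4.68, 3.81, 5.08 and 4.01 CPM in the No_Cre libraries, 11.2, 13.2, 12.1 and 10.6 in the Tek_Cre libraries and 11.8, 12.2, 11.6 and 12.3 in the Prx1_Cre libraries. The 2 Cre groups overlapped in both genes, and their difference was -0.00 ± 0.15 for Tlr13 and 0.04 ± 0.09 for Bmx on the log2 scale. Klf4 (chr4:55527143-55532466), a factor of monocytes and quiescent cells, was at 11.1, 8.57, 11.2 and 8.95 CPM in the No_Cre libraries, 4.42, 4.58, 4.02 and 2.89 in the Tek_Cre libraries and 4.18, 4.33, 3.41 and 4.63 in the Prx1_Cre libraries, a fall of 2.54-fold and 2.41-fold. The integrin gene Itga3 fell 2.14-fold and 2.23-fold, and Jakmip1 2.11-fold and 2.3-fold.

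Of 10 genes picked by hand around the niche axis, the cell cycle and BCR-ABL1, 8 were tested. Of these, 4 moved the same way in both groups, beside 20.9% of all tested genes. Ccne1 and Cdkn1a, given above, rose, and Egr1 and Bcr fell. Since the genes were hand-picked, the count is no result about the axis. The CXCL12 receptor gene Cxcr4 (chr1:128588199-128592293) measured 21.6, 23.2, 22.7 and 23.1 CPM in the No_Cre libraries, 22, 20.1, 21.2 and 21.6 in the Tek_Cre libraries and 26.8, 27.1, 26.9 and 26.4 in the Prx1_Cre libraries. It rose 1.18-fold in Prx1_Cre (adjusted p 0.000564), while in Tek_Cre, whose libraries overlapped No_Cre, the change was -0.09 ± 0.06 (0.226). Cxcl12 itself and the scavenger receptor Ackr3 fell below the filter on low counts, with Cxcl12 at 0.184 to 0.657 CPM (No_Cre), 0.175 to 0.666 (Tek_Cre) and 0.125 to 0.536 (Prx1_Cre). Ezh2 (chr6:47530139-47595341), the methyltransferase of PRC2, stood at 55.2, 57.6, 60.0 and 56.2 CPM in the No_Cre libraries, 53.9, 56.5, 53.2 and 49.7 in the Tek_Cre libraries and 97.2, 90.9, 92.2 and 77.8 in the Prx1_Cre libraries. It rose 1.57-fold in Prx1_Cre (adjusted p 4.68e-10), its change in Tek_Cre was -0.11 ± 0.06 (0.149), and the average of the Cre groups was higher by 0.27 ± 0.05 (7.76e-05), a call lost with 1 term for Cre or no Cre (0.286). Egr1, the immediate early factor known to hold stem cells in place and at rest, fell in both: 1694, 1586, 1666 and 1739.8 CPM in the No_Cre libraries, 1267, 1246, 1227 and 1264 in the Tek_Cre libraries and 557, 564, 561 and 575 in the Prx1_Cre libraries. Its fall was 1.34-fold and 2.96-fold, larger in Prx1_Cre by -1.15 ± 0.04 on the log2 scale (adjusted p 7.23e-19). The proliferation marker Mki67 fell 1.58-fold in Tek_Cre and rose 1.14-fold in Prx1_Cre. Bcr fell 1.74-fold and 2.84-fold, and Abl1 fell in Prx1_Cre (1.43-fold) with a change of -0.02 ± 0.06 in Tek_Cre; whether reads of a fusion transcript were counted at these genes is not known. Of 33 tested genes of the CXCL12 axis and homing, 3 were lower and 5 higher in both, counts near the shares of all tested genes (11.4% lower and 9.52% higher) and no result about the list. Single members were Dpp4, a protease that cleaves CXCL12, which fell 1.53-fold and 1.77-fold, and the integrin chain genes Itgb2, which rose 1.48-fold and 1.58-fold, and Itgam, which rose 1.58-fold and 1.86-fold.

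Several gene groups differed from No_Cre on the average while few or none of their genes moved the same way in both groups. Over all tested genes, 9.52% were higher and 11.4% lower in both. Of 32 tested erythroid genes, 24 were higher and 4 lower on the average, but 0 were higher and 2 lower in both, since 28 were higher in Prx1_Cre and 25 lower in Tek_Cre. Klf1 (chr8:84901928-84905291), the master factor of red cell genes, measured 30.3, 30.4, 28.3 and 27.5 CPM in the No_Cre libraries, 10.6, 10.5, 9.33 and 9.71 in the Tek_Cre libraries and 249, 249, 249 and 283 in the Prx1_Cre libraries. Its average change was 0.80 ± 0.05 (adjusted p 6.29e-12), although Tek_Cre fell 2.91-fold. Of 39 tested G2/M genes, 32 were higher on the average and 0 in both, and of 36 DNA replication genes 27 and 2. Ccna2 (chr3:36564865-36572150), the cyclin of S phase and G2, stood at 113, 118, 116 and 107 CPM in the No_Cre libraries, 99.1, 99.7, 99.4 and 90.7 in the Tek_Cre libraries and 263, 245, 246 and 232 in the Prx1_Cre libraries, higher in Prx1_Cre and lower in Tek_Cre. Of 36 genes of MYC and ribosome biogenesis, 22 were higher on the average, and 3 were higher and 2 lower in both. The 3 higher, with Mxd1 and Max among them, are near the share of all tested genes and no result about the list. In Prx1_Cre 31 were higher, and in Tek_Cre 21 lower. Of 16 MHC class I genes, 13 were lower on the average and 0 in both. Of 13 mitochondrially encoded genes, 5 had 0 counts in every library and 7 were tested. All 7 were higher on the average and 0 in both.

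Genes with a long total exon length took a larger share of those lower in both groups than of all genes, a description made after the calls were seen. Over 12915 protein-coding genes tested, cut into 5 equal bins by exon length, the longest bin (7515 bases and more) held 430 of the 1498 lower genes, or 28.7%, and 257 of the 1315 higher ones, or 19.5%. Within that bin 16.6% of genes were lower in both, against 9.99 to 11% in the other bins, while 9.41 to 11.1% were higher in both across all bins. The median exon length was 4413 bases over all, 4471 over the higher and 4967.5 over the lower genes. Kmt2a (chr9:44803355-44881296), a very long histone methyltransferase gene of leukemia, measured 54.4, 48.9, 53.9 and 57.3 CPM in the No_Cre libraries, 27.4, 28.7, 26.2 and 30.1 in the Tek_Cre libraries and 15.6, 13.1, 14.6 and 16.6 in the Prx1_Cre libraries. It fell 1.91-fold and 3.58-fold without overlap. Syne2, which links the nucleus to the cytoskeleton, fell 2-fold and 2.26-fold, the transcriptional repressor gene Spen 1.82-fold and 2.4-fold, and the kinase gene Wnk1 1.8-fold and 2.11-fold. These 4 genes were chosen after their values were seen, and whether RNA integrity or coverage along the transcript differed between groups was not tested.

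**Figure D5:**
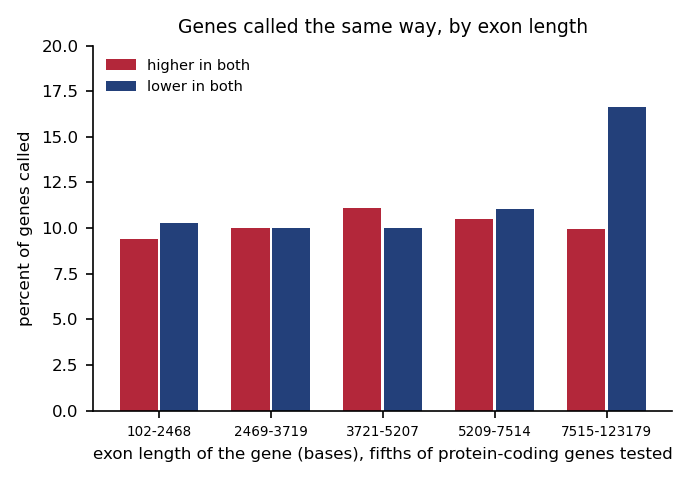
Percent of protein-coding genes called higher or lower in both Cre groups, in 5 equal bins of exon length. The longest bin has 16.6% of its genes lower in both, and the other bins 9.99 to 11%.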

How the data were processed

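RNA-seq counts of 12 libraries of sorted leukemic LTHSC were used, 4 in each of 3 groups taken from the sample titles. The authors deposited 1 table of raw counts per gene, with 48795 Ensembl identifiers and 1 column per library, and 0 columns were left unused. Per the submitters' processing notes, the tools were DESeq2 1.18.1, HTSeq 0.9.1, STAR 2.5.3a and Trim Galore 0.4.4, their roles not stated, on build GRCm38. The annotation release and strand setting are not given in the sources used here, so reads of overlapping or antisense genes could not be told apart.

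Symbols and coordinates come from GENCODE M21 on GRCm38, matched by identifier for 48349 genes. Where 1 of 63 symbols sat on several identifiers, the identifier with most counts was taken. All counts entered edgeR 4.0.16 (R 4.3.3) in 1 robust quasi-likelihood fit with TMM factors and a group term, after filterByExpr, which kept 14756 genes. Benjamini-Hochberg adjustment of p-values ran over these, and a gene is called under 0.05. A gene is called the same way when called with 1 sign in both Cre groups, and its smaller change is the log2 fold change nearer 0. SE are from the quasi-likelihood F. PCR reads without molecular identifiers are not independent molecules, so counting statements cover counting error only.

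Named genes were the 12 risen and 12 fallen of largest smaller change (mean of at least 5 CPM on the higher side, no overlap of libraries, a proper symbol, no immunoglobulin gene) and the 5 and 5 most alike in both groups. Also named were up to 3 per list and 10 genes picked by hand around the niche axis, the cell cycle and BCR-ABL1. A further 69 genes, among them members of the lists such as Fos, Ltf and Hlf, were chosen after their values were seen, and the text gives a part of all of these. The genes, the 40 lists (934 genes, 2 unmatched) and the comparison were chosen with earlier results of these data known. Promoters are RefSeq sequences of GRCm38.p6. The edgeR fit was tested on simulated data. Alternatives were other scaling factors, DESeq2 1.42.0, limma-voom (limma 3.58.1), other filters, no immunoglobulin genes, a replicate block, pairwise fits, each library left out, a test against a 1.5-fold change and 1 term for Cre or no Cre. Plots were made with matplotlib 3.10.9.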

Additional observations from a re-analysis of the deposited data

Results flagged for a closer look

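Of 40 named genes looked at library by library, 120 groups of 4 were checked for a library far from the others, and 9 were marked, where chance marks about 1 in 20. In Prx1_Cre replicate 4, Fos was at 3033 CPM against 2715 to 2769 in the other libraries of the group, Hspa5 at 1569 against 1721 to 1741, Ltf at 11157 against 9938 to 9985, Lcn2 at 2651 against 2524 to 2542, and Klf1 at 283 against 249. This library also stood apart from its group over all genes tested, so these marks are not separate events. Without it, 1553 genes were higher and 1924 lower in both, the highest counts with a library left out. In Prx1_Cre, replicate 1 had Tlr13 at 8.14 CPM against 5.69 to 6.00, and replicate 2 had Chac1 at 7.84 against 8.30 to 8.34. Bdh2 was at 16.6 CPM in No_Cre replicate 2 against 17.5 to 17.6, and Ccna2 at 90.7 in Tek_Cre replicate 4 against 99.1 to 99.7. None of these libraries crossed into the range of another group for the gene named.

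Among these 40 genes, for 7 called the same way, the size of the change differed between the Cre groups by at least 1 on the log2 scale with an adjusted p under 0.05 in edgeR's test of the difference. The difference (Prx1_Cre minus Tek_Cre) was 4.77 for Epx, 4.23 for Prg2, 2.60 for Rpl39l, 1.44 for Apc2, 1.28 for Ccne1, -1.15 for Egr1 and -2.65 for H2-Eb1.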

How the results depend on the processing

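Counts of genes called on the average, in both groups and by list kept their direction, and moved by less than 1.5 times under most settings. With 1 term for Cre or no Cre the average gave 1298 higher and 1275 lower genes. There the average changes of Igkc (1.42), Jchain (1.03), Mzb1 (1.35) and Mpo (0.51) turned positive without passing the threshold, while those of Ezh2, Mki67, Abl1 and Klf1, and of the same-way genes Prg2, Ear1, Ear6, H2-Eb1, Tet2, Tet3, Erg, Hlf, Jun and Junb, missed it. Tested against a 1.5-fold change, the average gave 680 higher and 1232 lower and both groups 215 and 294. The lists then held 3 late neutrophil, 1 ER stress, 2 ATF4, 4 immediate early, 0 LTHSC, 1 megakaryocyte, 2 MHC class II, 1 Wnt and 0 DNA methylation genes, by the larger change asked for. Genes with at least 2-fold in each group numbered 339 and 1012 without a filter, 39 and 59 with the stricter one, and 139 higher when only the 8 libraries compared were fitted.

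Genes called in both numbered 1379 higher and 1626 lower with DESeq2, 1372 and 1687 with limma-voom, 1176 and 1976 with upper-quartile factors (which put the median Prx1_Cre change of all genes at -0.11) and 1363 and 1710 without immunoglobulin genes. Leaving out a library gave 4106 to 4734 higher and 4718 to 5297 lower on the average, 1258 to 1553 and 1566 to 1924 in both, 217 to 244 and 292 to 351 at 2-fold, and by list 10 to 12 late neutrophil, 8 to 9 ER stress, 9 to 12 ATF4, 17 to 21 immediate early, 7 eosinophil, 12 to 13 LTHSC, 8 to 9 megakaryocyte, 5 MHC class II, 6 to 10 Wnt and 5 DNA methylation genes. Same-numbered libraries of different groups correlated at -0.0322 to 0.204 over 12 pairs, and only 2 were over 0.1, so the numbers were not taken to pair libraries. Yet a library correlated best with its own number in 15 of 24 cases, where chance gives 1 in 4, a hint of pairing from the data and not from the design. A replicate block gave 1583 higher and 1806 lower in both, and 4750 and 5121 on the average.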
